A study of Homo sapiens with 6 samples.

Results

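TMEFF2 encodes a single-pass membrane protein, also named TPEF, HPP1 and TENB2, that was read on these arrays by 3 probe sets, 224321_at, 233910_at and 223557_s_at, of 54613 tested. They are the probe sets annotated with TMEFF2 and no other gene, and TMEFF2 is 1 of 19775 genes with such probe sets. The gene was chosen by its values, since 224321_at had the most negative difference, Vorinostat minus DMSO, of all probe sets tested. That contrast is therefore given as a description, with no test. RNA came from OCI-AML3, an established human acute myeloid leukaemia cell line that carries a mutation of NPM1. One group of 3 samples was treated with 1 μM Vorinostat (SAHA), an inhibitor of histone deacetylases, for 24 h, and the other group of 3 samples was given DMSO, the solvent, for 24 h. Both groups are the same line in the same medium, and each sample was hybridised to 1 Affymetrix HG-U133 Plus 2.0 array. Whether the replicates 1, 2 and 3 of a group are separate cultures is not stated in the sources used here. The spread behind each p-value is thus that of these 6 arrays and could be technical, and their number limits the precision.

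The extracellular part of TMEFF2 holds a pair of follistatin-like modules and a domain related to epidermal growth factor (EGF), and it can be shed from the cell surface by ADAM proteases. The protein binds the PDGF-AA growth factor and, inside the cell, the mitochondrial enzyme sarcosine dehydrogenase. TMEFF2 is known for expression in brain and prostate, for its raised level in prostate cancer and for promoter methylation in tumours of the colon and other organs. It is not a classical gene of myeloid cells. TMEFF1 is its closest relative, with the same domains.

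Values are log2 array values as deposited, in which most probe sets lie in a narrow low band and the median of an array was between 1.55 and 1.66. The arrays differed in signal more by replicate number than by treatment. Probe sets above a log2 value of 3 numbered 8158 on Vorinostat replicate 1 and between 2769 and 3274 on the other Vorinostat arrays, against 8645 on DMSO replicate 1 and between 2761 and 3731 on the other DMSO arrays. The replicate 1 arrays therefore stand apart from the other 4, and TMEFF2 values are given with and without them. Of 14 myeloid leukaemia markers 11 had a probe set of their own and 5 of these had a mean above 3, led by CTSG, CEBPA and LYZ. Of 47 markers measured of prostate, neuronal and glial, epithelial, fibroblast and lymphoid cells 1 did, the tubulin gene TUBB3.

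TMEFF2 was among the brighter genes of the DMSO samples on 224321_at and was lower with Vorinostat in each replicate number. The log2 value of 224321_at was 1.91, 4.33 and 6.08 on Vorinostat replicates 1, 2 and 3. It was 7.33, 6.91 and 8.89 on DMSO replicates 1, 2 and 3. All 3 Vorinostat arrays thus lay below all 3 DMSO arrays, with Vorinostat replicate 3 nearest to the DMSO range and Vorinostat replicate 1 down in the low band. The mean was 4.11 ± 2.09 (SD, n = 3) with Vorinostat and 7.71 ± 1.05 (SD, n = 3) with DMSO. That is a difference of -3.60 (standard error 1.16 from limma), or 12.2-fold lower with Vorinostat. In bulk RNA, fewer cells that express a gene and less of its RNA per cell cannot be told apart.

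**Figure D1:**
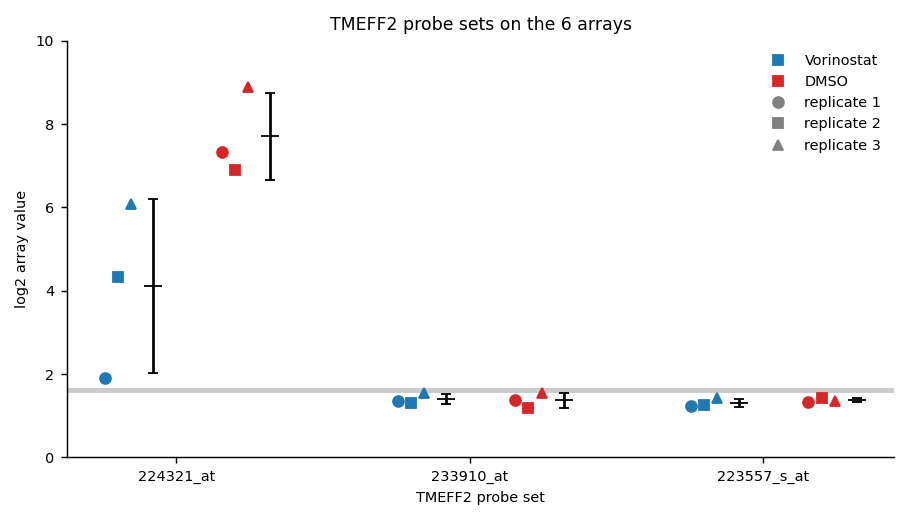
Log2 array values (vertical axis) of the 3 TMEFF2 probe sets (horizontal axis). Each point is 1 array, blue for Vorinostat and red for DMSO, with the marker showing the replicate; black bars are the mean and SD of n = 3, and the grey band spans the medians of the 6 arrays, 1.55 to 1.66. Only 224321_at stands above the band, with all Vorinostat points below all DMSO points.

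The other TMEFF2 probe sets stayed in the low band on every array. On 233910_at the values were 1.35, 1.30 and 1.55 on Vorinostat replicates 1, 2 and 3, against 1.38, 1.19 and 1.54 on DMSO replicates 1, 2 and 3. On 223557_s_at they were 1.24, 1.27 and 1.41 with Vorinostat, against 1.33, 1.42 and 1.36 with DMSO, in the same order of replicates. All of these 12 values lie below the median of their own array, and the groups overlap on both probe sets. The difference was 0.03 (standard error 0.134 from limma) on 233910_at and -0.07 (standard error 0.0942 from limma) on 223557_s_at. The groups did not overlap, with Vorinostat lower, for 1 of the 3 probe sets, against 2.87% of all probe sets. The same 1 of 3 was lower in each replicate number, against 14.7% of all. Of all probe sets 0.0275% were lower by over 2-fold with an unadjusted p under 0.05, the threshold of the study, and 0 had an adjusted p under 0.05 from limma, where 0.998% had an unadjusted p under 0.05. Since this contrast chose the gene, nothing is read from these counts. At its threshold the study reported many more genes lower, and many more higher, than were found here. Its list of decreasing genes does not name TMEFF2. The reason for these differences from the study was not tested.

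The low TMEFF2 value under Vorinostat is therefore a reading of 224321_at alone. Where each probe set lies on the TMEFF2 transcripts was not analysed here, and levels of different probe sets depend on their probes as well as on the RNA. The mean over all 6 arrays was 5.91 for 224321_at, 1.38 for 233910_at and 1.34 for 223557_s_at. The highest probe set thus stood 4.52 above the next on the log2 scale. Among the 679 genes with exactly 3 probe sets of their own and a highest mean above 3, this gap had a median of 1.43 and a 95th percentile of 3.64. In 11 of them, or 1.62%, it was at least as large as in TMEFF2, which is one of the 11. A second probe set with a mean below 2 was found in 209 of them, or 30.8%, so disagreement of this kind is common on these arrays. Its size in TMEFF2 is among the widest of the 679. A gene with a highest mean near 3 cannot reach a gap of 4.52, and 224321_at was chosen by its values. Nothing is therefore read from the 1.62%. Averaged over its 3 probe sets, the TMEFF2 difference was -1.21.

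**Figure D2:**
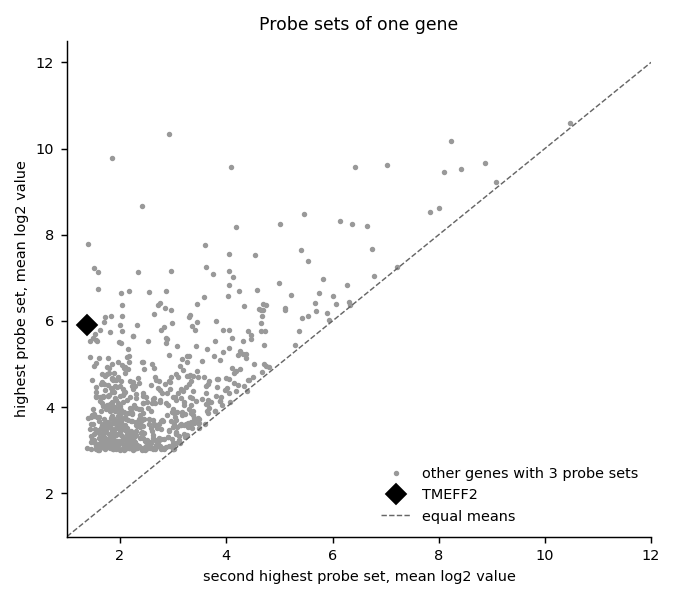
Mean log2 value over 6 arrays of the highest probe set (vertical axis) and of the second highest (horizontal axis) for the 679 genes with 3 probe sets of their own and a highest mean above 3. The dashed line marks equal means; TMEFF2, the black diamond at 5.91 and 1.38, lies at the left edge, 4.52 above it.

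Ranking within each array takes out any shift or stretch of the whole array. The rank of 224321_at from the top was 15597, 818 and 456 on Vorinostat replicates 1, 2 and 3. It was 1193, 374 and 78 on DMSO replicates 1, 2 and 3. Expressed as the share of probe sets below it, TMEFF2 stood at 71.4%, 98.5% and 99.2% on the Vorinostat arrays and at 97.8%, 99.3% and 99.9% on the DMSO arrays. On Vorinostat replicates 2 and 3 it therefore remained among the brightest probe sets, and the rank was far lower on Vorinostat replicate 1 alone. In each replicate number the Vorinostat array ranked lower than the DMSO array of that number. Across numbers the ranks of the groups overlap, since DMSO replicate 1 ranked below Vorinostat replicates 2 and 3. Over the 19775 genes, each read by its brightest probe set, TMEFF2 was 1431st by the mean of the Vorinostat arrays and 149th by the mean of the DMSO arrays. The other TMEFF2 probe sets were above between 0.961% and 34.8% of the probe sets of an array.

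**Figure D3:**
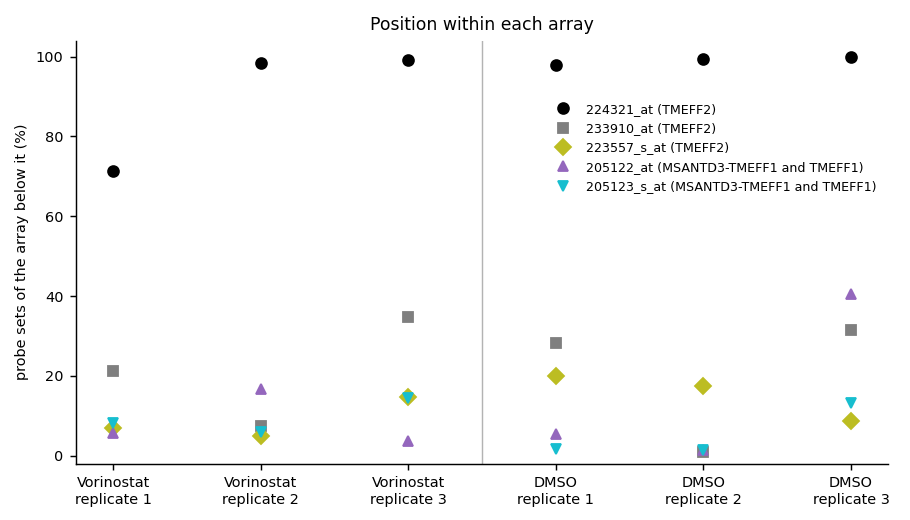
Share of all probe sets of an array that lie below each of 5 probe sets (vertical axis, %) on the 6 arrays (horizontal axis, Vorinostat left and DMSO right). 224321_at lies at 97.8% or more on 5 arrays and at 71.4% on Vorinostat replicate 1, while the other TMEFF2 probe sets and those listing TMEFF1 lie between 0.961% and 40.6%.

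The labels do not state that a number pairs its arrays, and numbers 2 and 3 were not told apart by their values. By replicate number, the differences on 224321_at were -5.42 in number 1, -2.58 in number 2 and -2.81 in number 3. These are 42.7-fold, 5.98-fold and 7.03-fold lower values with Vorinostat. The difference of number 1 was the most negative of all probe sets in that number, that of number 3 was the sixth most negative and that of number 2 the 223rd. Thus the lead of TMEFF2 over other probe sets rests on number 1, where the Vorinostat value of 1.91 is near the low band and the size of the fold is poorly measured. A difference below -2 in all 3 numbers was found for 224321_at and no other probe set, 0.00183% of those tested. Since this contrast chose the gene, nothing is read from that count, which also depends on how numbers 2 and 3 are paired. Without both number 1 arrays the difference was -2.70, the seventh most negative. Without Vorinostat replicate 1 it was -2.51, the 128th, and without DMSO replicate 3 it was -3.01, the eighth. The other fits that left out 1 array gave between -4.59 and -3.71, each the most negative of all.

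Of the 11 housekeeping genes measured, 5 had a negative difference in number 1, 11 in number 2 and 6 in number 3, and the median of the 11 gene differences was 0.02, -1.70 and -0.24 in numbers 1, 2 and 3. Number 2 is thus the number in which they were lower together. The median level of the 11 housekeeping genes measured was 9.00, 4.48 and 5.14 on Vorinostat replicates 1, 2 and 3, against 8.43, 5.99 and 6.17 on DMSO replicates 1, 2 and 3. These array medians, which can fall on different genes, differed by 0.57, -1.52 and -1.04 in numbers 1, 2 and 3, further from 0 in numbers 1 and 3 than the median of the gene differences. Set against this median on each array, the TMEFF2 difference was -5.99 in number 1, -1.06 in number 2 and -1.78 in number 3, with a mean of -2.94. After quantile normalisation, which gives the 6 arrays one distribution, it was -3.43, -1.31 and -2.36 in numbers 1, 2 and 3, with a mean of -2.37 (standard error 1.61 from limma), so the value shrank by over 1.5 times. The sign was negative in each number under each of these scalings. The part of the lower housekeeping values in the number 2 difference was not tested. The count of probe sets above 3 was lower with Vorinostat in number 1, 8158 against 8645 with DMSO. It was lower too in number 2, 2769 against 3731. In number 3 the count was higher with Vorinostat, 3274 against 2761 with DMSO.

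**Figure D4:**
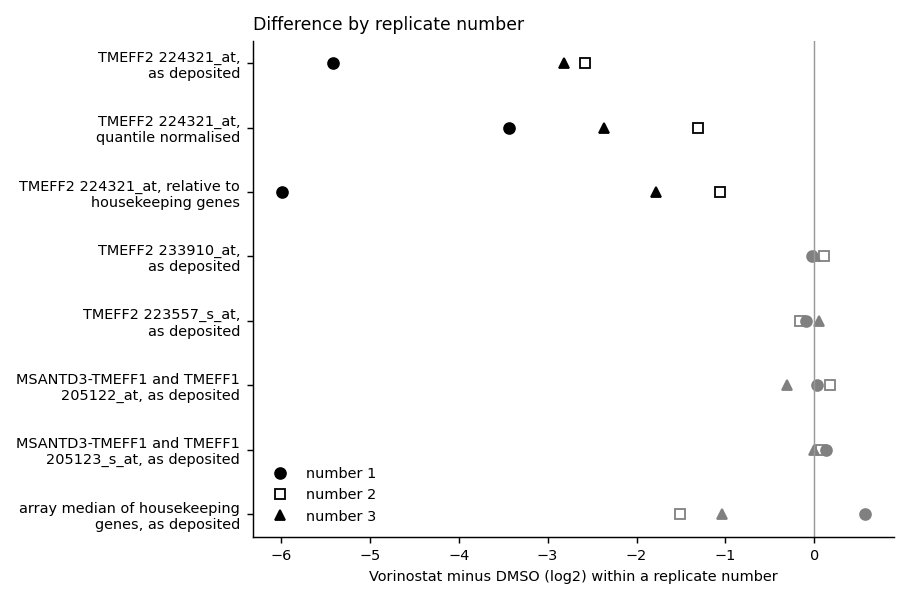
Vorinostat minus DMSO within each replicate number (horizontal axis, log2) for TMEFF2 on 224321_at under 3 scalings, for the other TMEFF2 probe sets, for the probe sets listing TMEFF1 and for the array median of housekeeping genes. TMEFF2 on 224321_at is negative in all numbers and scalings, between -5.99 and -1.06, while the other TMEFF2 probe sets lie between -0.16 and 0.11.

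On the replicate 1 arrays, which had the higher signal, TMEFF2 was not raised. Replicate 1 minus the mean of replicates 2 and 3 was -3.29 for TMEFF2 among the Vorinostat arrays and -0.57 among the DMSO arrays. Of the 3259 genes with a Vorinostat mean above 3, the median of this offset was 2.68 and 238 genes, or 7.30%, were negative. Of the 3550 genes with a DMSO mean above 3, the median was 2.50 and 188 genes, or 5.30%, were negative. The level of 3 is passed more often on the replicate 1 arrays, so a gene can enter these sets through its replicate 1 value alone, and the medians and shares are given as a description. The values of TMEFF2 here are those of the contrast that chose it.

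**Figure D5:**
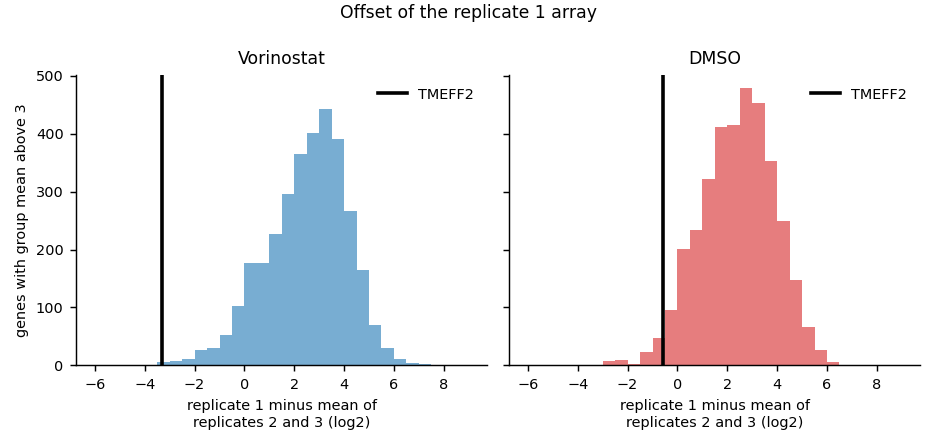
Number of genes (vertical axis) by the offset of the replicate 1 array from the mean of replicates 2 and 3 (horizontal axis, log2), for genes with a group mean above 3 in Vorinostat (left, 3259 genes) and DMSO (right, 3550 genes). The black line is TMEFF2, at -3.29 with Vorinostat and -0.57 with DMSO, below the medians of 2.68 and 2.50.

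Genes with the pattern most like TMEFF2 were sought by the root mean square distance between profiles over the 6 arrays, each centred on its own mean. The closest of 19774 genes were HOXB8, a homeobox transcription factor, at a distance of 1.60, DPYSL4, of the dihydropyrimidinase-like family, at 1.74, and DICER1-AS1, ISYNA1 and FANCD2OS at between 1.77 and 1.78. A gene with no variation at all would lie at 2.25, so none of them follows TMEFF2 closely. HOXB8 was 2.18, 2.07 and 2.49 on Vorinostat replicates 1, 2 and 3 and 2.93, 2.54 and 6.10 on DMSO replicates 1, 2 and 3. All 5 were highest on DMSO replicate 3, as TMEFF2 was, which a small distance to its profile favours.

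TMEFF1, the closest relative, had no probe set of its own. The 2 probe sets that list it, 205122_at and 205123_s_at, also list the readthrough transcript MSANTD3-TMEFF1, so neither gene is read alone. On 205122_at the values were 1.22, 1.39 and 1.29 on Vorinostat replicates 1, 2 and 3, against 1.20, 1.22 and 1.60 on DMSO replicates 1, 2 and 3. On 205123_s_at they were 1.25, 1.28 and 1.41 with Vorinostat, against 1.12, 1.21 and 1.41 with DMSO. Both probe sets lay in the low band on every array, with overlapping groups. The difference was -0.04 (standard error 0.144, unadjusted p = 0.809, adjusted p = 1 from limma) on 205122_at and 0.07 (standard error 0.115, unadjusted p = 0.573, adjusted p = 1 from limma) on 205123_s_at.

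Of the 6 genes measured nearest to TMEFF2 on chromosome 2, 3 were below a log2 value of 3 on every array. On one side lie CAVIN2, a caveola protein, NABP1, which binds single-stranded DNA, and STAT4, a transcription factor of cytokine signalling, and on the other PCGEM1, a long non-coding RNA known from prostate, LINC01821 and SLC39A10, a zinc transporter. PCGEM1, the nearest of these on its side, was 1.53, 1.83 and 1.80 on Vorinostat replicates 1, 2 and 3 and 1.36, 1.63 and 1.86 on DMSO replicates 1, 2 and 3. CAVIN2, the nearest on the other, was 1.40, 1.26 and 1.56 with Vorinostat and 1.50, 1.59 and 1.63 with DMSO. Neither of these flanking genes had the high DMSO values of TMEFF2. STAT4 differed by 0.62, NABP1 by 0.63 and SLC39A10 by -0.54, and 0 of the 6 neighbours passed the threshold of the study or an unadjusted p under 0.05 with limma. With the replicate number as a block, 1 of 6 had an unadjusted p under 0.05 from limma, against 3.67% of all probe sets. That share is over probe sets, dim ones included, while each neighbour is a gene read by its brightest probe set.

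Genes of the processes in which TMEFF2 takes part were taken from 6 lists written by hand, which hold 80 measured genes. Of all 19775 genes, 10502 had a negative and 9273 a positive difference, beside which the counts of signs below stand. Over all genes, 10 of 19775 were lower and 9 higher by more than 2-fold with an unadjusted p under 0.05 from limma, 0.0506% and 0.0455%. None of the 80 passed that threshold, and 0 had an adjusted p under 0.05 by limma. By limma 1 of the 80 had an unadjusted p under 0.05, against 0.998% of all probe sets. With the replicate number as a block, 6 of the 80 did by limma, against 3.67% of all probe sets. Both shares are over probe sets, dim ones included, while the 80 are genes read by their brightest probe set. By the methods' t-test 1 of the 80 did. No share over all genes is given for that test, so nothing is read from its count. With the replicate number as a block, 3 of the 80 passed the threshold of the study, EGFR and BACE1 higher and TYMS lower, against 0.632% of genes lower and 0.197% higher. None of the 3 had an adjusted p under 0.05 with the block, where it was 0.887 from limma for each.

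Among EGF ligands and their ERBB receptors 11 of 13 measured genes had a positive difference, against 9273 of 19775 over all genes. The median was 0.12, against -0.02 over all genes. Of the 13, 8 were below 3 on every array, so their signs are those of values near the low band. EGFR, the receptor of EGF, led the list in level. Its brightest probe set, 1565483_at, was 2.62, 8.29 and 6.30 on Vorinostat replicates 1, 2 and 3, against 1.72, 6.05 and 4.20 on DMSO replicates 1, 2 and 3. It was higher with Vorinostat in each number, by 0.90, 2.23 and 2.10, as 13% of all genes were, and it was lower on the replicate 1 array than on the other arrays of its group. The difference was 1.75 (standard error 1.79, unadjusted p = 0.371, adjusted p = 1 from limma), and with the block the unadjusted p was 0.00427 from limma. EGFR had 9 probe sets, of which 1565484_x_at had a mean of 3.77 and a difference of 0.21 and the other 7 had means between 1.39 and 2.13, so EGFR too was read well above the low band by few of its probe sets. HBEGF and NRG2, growth factors that bind ERBB receptors, were next in level, with means of 2.51 with Vorinostat and 2.23 with DMSO for HBEGF and 2.58 and 1.83 in the same order for NRG2.

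Proteases that shed membrane proteins had a median difference of 0.07, positive in 9 of 16 measured genes. BACE1, the beta-secretase that cleaves the amyloid precursor protein, was the brightest. It was 4.64, 5.81 and 4.68 on Vorinostat replicates 1, 2 and 3, against 3.79, 4.39 and 2.00 on DMSO replicates 1, 2 and 3. It was higher with Vorinostat in each number, as 13% of all genes were. For BACE1 the difference was 1.65 (standard error 0.703, unadjusted p = 0.0624, adjusted p = 1 from limma), and with the block the unadjusted p was 0.0119 from limma. Its other 3 probe sets had differences between 0.03 and 0.30. The sheddase ADAM10 was 7.11 on Vorinostat replicate 1 and 6.97 on DMSO replicate 1, and at most 2.17 on the other arrays, so it followed the array signal in the way TMEFF2 did not. APH1A, a gamma-secretase subunit, had means of 3.42 with Vorinostat and 3.07 with DMSO.

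Of the enzymes around sarcosine and one-carbon metabolism, 7 of 11 measured genes had a negative difference, with a median of -0.14, and SARDH, the sarcosine dehydrogenase, had no probe set of its own. SHMT2, the mitochondrial serine hydroxymethyltransferase, averaged 7.23 ± 1.65 with Vorinostat and 7.10 ± 1.83 with DMSO (SD, n = 3 each). TYMS, which makes the thymidylate for DNA synthesis, was 8.67, 4.12 and 5.09 on Vorinostat replicates 1, 2 and 3, against 9.74, 6.60 and 5.95 on DMSO replicates 1, 2 and 3. It was lower in each number, as 13.7% of all genes were, with differences of -1.07, -2.48 and -0.86. The groups overlap, with a difference of -1.47 (standard error 1.56, unadjusted p = 0.386, adjusted p = 1 from limma) and an unadjusted p of 0.0147 with the block. The other TYMS probe sets differed by -1.02 on 1554696_s_at, with a mean of 4.24, and by -0.09 on 217684_at, with a mean of 1.72. AHCY, which hydrolyses S-adenosylhomocysteine, averaged 4.81 with Vorinostat and 5.42 with DMSO.

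The ligands and other partners of TMEFF2 domains were dim. Of 6 PDGF ligands and receptors none had a mean above 3, and 4 had a positive difference, with a median of 0.11. PDGFRA, PDGFB and PDGFD were the brightest, at 2.28, 2.36 and 1.65 with Vorinostat and 2.04, 1.73 and 1.68 with DMSO. Of 18 other proteins with follistatin-like modules IGFBP7 alone had a mean above 3, at 3.05 with Vorinostat and 3.22 with DMSO, and 11 had a negative difference, with a median of -0.08. RECK and FST, the activin antagonist follistatin, followed it in level. Of 16 measured genes of the activin and nodal pathway none had a mean above 3, and the median difference was -0.00, with SMAD2, a signal transducer, at 2.90 in both groups and INHBC and ACVR1B next in level.

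Most markers of the tissues for which TMEFF2 is known were low in both groups. Of 10 measured prostate markers none had a mean above 3. The brightest was ACP3, at 4.32, 1.87 and 1.98 on Vorinostat replicates 1, 2 and 3. On DMSO replicates 1, 2 and 3 it was 5.13, 1.96 and 1.91, so it stood above the low band on the replicate 1 arrays. KLK3, the prostate-specific antigen, was 1.98, 2.58 and 2.09 on Vorinostat replicates 1, 2 and 3 and 1.75, 2.11 and 1.96 on DMSO replicates 1, 2 and 3. Among 14 neuronal and glial markers TUBB3 was the brightest, at 3.55 ± 2.03 with Vorinostat and 4.29 ± 1.62 with DMSO (SD, n = 3 each), followed by MBP and SLC17A7. The array median of the prostate list ranged from 1.64 to 1.88 with Vorinostat and from 1.44 to 1.80 with DMSO, and that of the neuronal and glial list from 1.55 to 1.82 with Vorinostat and from 1.51 to 1.73 with DMSO. None of the 47 markers of other cell types passed the threshold of the study by limma, without or with the replicate block. The array medians of the prostate and of the neuronal and glial lists were thus low. Single markers were not, with TUBB3 at 5.88 on Vorinostat replicate 1 and 5.92 on DMSO replicate 1. A relation of these markers to the TMEFF2 signal on 224321_at was not tested. The myeloid markers CTSG, a granule protease, CEBPA, a transcription factor of myeloid cells, and LYZ, lysozyme, averaged 7.44, 5.67 and 4.95 with Vorinostat and 8.52, 5.50 and 5.32 with DMSO. CTSG, with a difference of -1.08, passed the threshold of the study with the replicate block and not without it, and its adjusted p was 0.887 with the block and 1 without it, both from limma.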

How the data were processed

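Expression was read on 6 arrays, 3 per group as labelled. For each array, the authors deposited a log2 value per probe set, 54675 in all and lying between 0.868 and 13.8. That the scale is log2 follows from this range. Partek Genomics Suite is the software given in the methods; MAS5 and RMA appear in the submitters' processing notes without a stated role. No further normalisation was applied. Without 62 controls, 54613 probe sets entered limma (version 3.58.1, R version 4.3.3; lmFit and eBayes, no block, no filter), checked on simulated data, with Benjamini-Hochberg adjustment. Of these, 41091 name 1 gene. A gene is read by its probe set of highest mean. Neighbours come from RefSeq tables for GRCh38.p14.

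Members and lists were chosen with earlier results of these data known. Named genes are TMEFF2, TMEFF1, the 5 of closest pattern, 3 neighbours on each side and up to 3 list members of highest mean. Differences at other probe sets of EGFR, BACE1 and TYMS were added after their values were seen. As no probe set names TMEFF1 alone, the planned TMEFF1 comparison used the probe sets that list it with the readthrough. Arrays of one number deviated together from their group means over probe sets (r = 0.874, 0.599 and 0.672 for numbers 1, 2 and 3, all above 0.1), so a number was treated as pairing its arrays; the labels do not state why. Numbers 2 and 3 were not told apart by this check, as Vorinostat replicate 2 with DMSO replicate 3 gave 0.695 and Vorinostat replicate 3 with DMSO replicate 2 gave 0.594. Deviations from a group mean sum to 0, and the replicate 1 arrays stand apart in both groups. The check could thus hardly fail for numbers 2 and 3, and every p-value with the block rests on the pairing as numbered.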

Additional observations from a re-analysis of the deposited data

How the results depend on the processing

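The TMEFF2 difference on 224321_at, -3.60, was negative in the 13 alternatives run. Nothing is read from that sign, since this contrast chose the gene. All Vorinostat values lay below all DMSO values, so leaving out arrays could not change the sign. The replicate block and the filter on dim probe sets leave the difference unaltered by design. The difference was between -4.59 and -2.51 without single arrays and -3.60 with the replicate block. It was -1.21 as the mean over the gene's 3 probe sets, where the cause is the inclusion of the dim ones. The 205122_at difference, -0.04, changed sign to 0.62 with arrays centred on housekeeping genes (chosen after seeing the data) and to 0.0161 as the mean with 205123_s_at, and lay between -0.108 and 0.0949 without single arrays (0.00337 without Vorinostat replicate 1, 0.0949 without DMSO replicate 3); the cause was not tested. It could not be fitted after the filter on dim probe sets, which it failed. The 15 probe sets lower past the threshold of the study became 71 after quantile normalisation, 175 with the replicate block, 1 with only probe sets above 3 on at least 3 arrays, 205 without both number 1 arrays, 0 centred on housekeeping genes, 2 by the methods' t-test, and 0 to 141 without single arrays (0 without Vorinostat replicate 2, 141 without Vorinostat replicate 1, 25 without DMSO replicate 2, 75 without DMSO replicate 3). List genes past it, 0 of 80, became 1 after quantile normalisation and 1 without both number 1 arrays (TYMS lower each time). They became 3 with the replicate block, which besides CTSG changed no other call of a named list gene or marker. Without single arrays they became 0 to 3. Without Vorinostat replicate 1 they were 3, namely ADAM12, ERBB3 and NRG2, all higher. Without DMSO replicate 2 the 1 called was BACE1, higher. Except for the block, shares of all genes called in these fits are not given here, so nothing is read from these list counts. Centring on housekeeping genes moved the median difference of all genes by 0.66, and the median of each of the 6 lists was then positive. Signal over background limits every value near the low band, since no background measure was used here.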

Other observations

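The probe sets next to TMEFF2 in the order of negative differences were COX2 on 1553570_x_at at -2.62, ATP6 at -2.56, ADI1 on 217761_at at -2.55 and ND4 on 224372_at at -2.53. COX2, ATP6 and ND4 are encoded by the mitochondrial genome. COX2 differed by -1.61, -5.05 and -1.19 in numbers 1, 2 and 3. ADI1 differed by -4.31, -2.74 and -0.59 in the same numbers, where TMEFF2 had -5.42, -2.58 and -2.81. These genes were named after their values were seen, and no test of a difference between them was run.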
